A study of Mus musculus with 16 samples.

Results

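The comparison concerns forebrain RNA from adult female wild-type mice of the strain B6.C3Sn, read either without amplification or after a reaction in a tube that started from 10 pg. Members were taken by sample label: 3 arrays of the tube reaction (called tube 1, 2 and 3 by the replicate number) and 3 arrays of unamplified RNA (control 1, 2 and 3), 6 of the 16 arrays of the study. All 16 are single-colour hybridisations of Cy5-labelled cDNA on spotted mouse oligonucleotide arrays. The 3 arrays of the 10 pg reaction in a 7 nL microfluidic mixer serve as a reference beside them. For the control group, 15 µg of total RNA was labelled directly with Cy5-dUTP by overnight reverse transcription at 37 °C from random hexamers. For the tube group, 10 pg of RNA was reverse-transcribed for 20 minutes at 37 °C in 10 µL, and the cDNA went through 40 PCR cycles. Both groups therefore differ in input, primer, incubation and amplification at once, and these cannot be told apart. RNA came from DNase-treated forebrain, and the labels do not say whether the replicates of a group came from different animals or from 1 extract. P-values then measure only the spread between these hybridisations, which may be technical.

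A single mammalian cell holds picograms of total RNA, of which messenger RNA is a small part, so a picogram input stands for the amount found in about a single cell. In template-switch amplification, reverse transcriptase starts on the poly(A) tail from an oligo(dT) primer, adds a few untemplated C bases when it reaches the end of the RNA, and then copies a second oligonucleotide that pairs with them. Only cDNAs that carry the same sequence at both ends are then copied by PCR. A transcript represented by few molecules can be missed at the first step, and each cycle multiplies what was captured.

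The primers are shown because every amplified molecule on the tube arrays had to carry their common part. Each is written from 5′ to 3′, with capitals marking the 23 bases shared by all and lower case marking the rest. The first has 30 bases and the last 23; the 3′CDS primer has 57, of which 55 are shown, without the 2 mixed bases at its end.
Smart A: AAGCAGTGGTATCAACGCAGAGTacgcggg
3′CDS: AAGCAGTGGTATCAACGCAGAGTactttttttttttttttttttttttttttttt
5′PCR primer: AAGCAGTGGTATCAACGCAGAGT
Smart A ends in g bases, the end copied at the switch. The 3′CDS primer carries the run of t that pairs with the poly(A) tail, and the 5′PCR primer alone drives the amplification. The control cDNA was made with none of these.

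Each array held 24109 gene probes after repeats of 1 probe were joined. Values called net intensity are the median of a spot minus the local background, on the scanner's linear scale, where a spot saturates at 65535 before subtraction. Local background was brighter under the tube arrays, with medians of 2488, 2405 and 2440 on tubes 1 to 3 against 1213, 1117 and 1154 on controls 1 to 3. The median net intensity of gene probes was 208, 175 and 210 on tubes 1 to 3. On controls 1 to 3 it was 4243, 3423 and 3390. The tube arrays were thus the dimmer and had the brighter background, without overlap of the groups. Between 40 and 61 probes saturated on a tube array and between 479 and 672 on a control array. The control files record 1 scanning session, the mixer files record another and the tube files record none. A scanning batch and the group therefore cannot be told apart, against the controls or against the mixers.

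Markers of neurons, oligodendrocytes and astrocytes ranked high on the control arrays, by their medians. Probes were ordered by mean control intensity, from 0 for the dimmest to 100 for the brightest, an order that depends on the probe as well as on the transcript. In that order 7 measured neuron markers had a median percentile of 97.03, 7 oligodendrocyte markers 91.1 and 7 astrocyte markers 91.5. Markers of microglia had a median of 78.0, of endothelium and pericytes 62.3 and of proliferating cells 56.5. A bright probe alone does not show a forebrain transcript. The 95th percentile of net intensity of odorant receptor probes was 39251, 31502 and 31218 on controls 1 to 3. Of the 7 neuron markers, 0 were above the buffer spots on all tubes and 2 on none, as for the 7 astrocyte markers. The counts were 1 and 0 for 7 oligodendrocyte, 3 and 1 for 7 microglia and 3 and 2 for 6 endothelium and pericyte markers. For 5 markers of proliferating cells they were 4 and 0. Over all 21881 named genes the shares were 20.6% on all tubes and 34.3% on none. In bulk RNA such as this, fewer cells of a type and less RNA per cell cannot be told apart.

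The share of forebrain transcripts seen again in a tube depended on the limit set. A probe counted as detected when its net intensity was above the 95th percentile of the 339 buffer spots (spots printed without DNA) of its own array, a limit of 276.1, 263.2 and 270.2 on tubes 1 to 3. Every control array detected 22272 probes (called control-detected), of which 43.6% were detected on tube 1, 38.4% on tube 2 and 44.4% on tube 3, a mean of 42.1% ± 3.22 (SD, n = 3). With a limit from the spread of the local background instead, the shares were 6.47%, 3.92% and 8.48%. Tube 1 has no recorded spread, so the mean of tubes 2 and 3 at each spot stood in for it, here and wherever this limit is used. The mixer arrays detected 94.2%, 78.6% and 86.1% of the same probes. Tube and mixer did not overlap, and the difference of -44.2 percentage points had the smallest two-sided p an exact permutation test of 3 against 3 allows, 0.1, also after adjustment over 3 such tests.

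The same limit also passed probes for genes that adult forebrain is not known to use. Probes for 720 odorant receptors, which are expressed in the nose, were detected at 40.3%, 34.4% and 46.9% on tubes 1 to 3, close to the shares for the control-detected probes. On controls 1 to 3 they were detected at 93.5%, 93.5% and 91.7%, and on the mixers at 96.5%, 51.8% and 53.2%. On the tubes, being above buffer spots therefore gave these probes and the control-detected ones similar shares. A second limit was added after these values were seen, the 95th percentile of the odorant receptor probes of each array, which lay at 1826, 1207 and 2636 on tubes 1 to 3.

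Few probes passed in every tube. Of the control-detected probes, 4500 (20.2%) were above the buffer limit on all 3 tubes and 7636 (34.3%) on none, while 5620 were above it on 1 tube and 4516 on 2. Odorant receptor probes were above it on all tubes in 15.6% of cases and on no tube in 32.6%. Above the odorant receptor limit, 423 control-detected probes (1.9%) passed on all 3 tubes and 3601 (16.2%) on at least 1. Among the odorant receptors themselves 3 of 720 passed that limit on all tubes. On no tube was it passed by 636 of the 720 (88.3%), against 18671 (83.8%) of the control-detected probes.

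Transcripts that were bright without amplification were recovered more often. In the dimmest 10% of control-detected probes, 27.2% were detected on tube 1, 31.9% on tube 2 and 29.0% on tube 3. In the brightest 10% the shares were 66.3%, 53.4% and 68.0%. Shares were higher at the bright end on all 3 tubes, and the gap was smallest on tube 2. Detection on all 3 tubes went from 10.9% of the dimmest to 40.5% of the brightest 10%, and detection on no tube from 47.4% to 17.4%.

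The stricter limit gave lower shares, again higher at the bright end. Above the odorant receptor limit stood 2.38% of the dimmest and 24.9% of the brightest 10% on tube 1, and 1.12% and 23.2% on tube 3. Tube 2 spanned 6.42% to 15.8%, so that its dimmest probes passed more often and its brightest less often than on the other tubes.

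**Figure D1:**
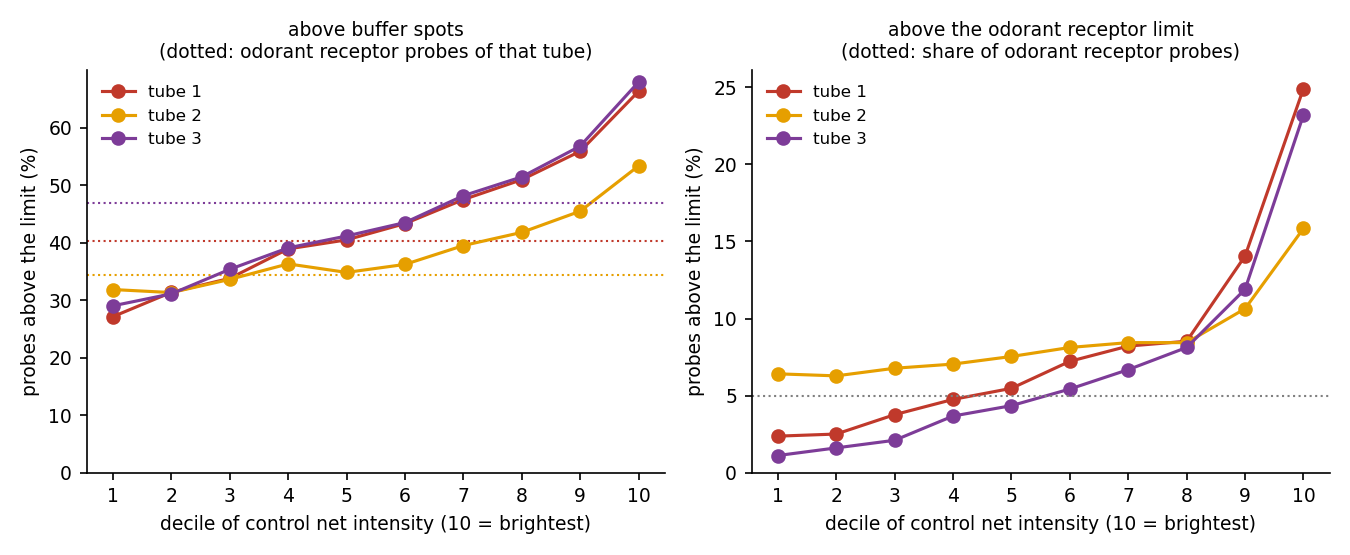
Share of control-detected probes (percent, vertical axes) above the buffer limit (left) and above the odorant receptor limit (right) on each tube array, in 10 equal bins of control net intensity (horizontal axis, 10 the brightest); dotted lines mark the odorant receptor probes. Tubes 1 and 3 climb from 27.2% and 29.0% to 66.3% and 68.0% above buffer, and tube 2 from 31.9% to 53.4%.

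Tubes 1 and 3 resembled each other more than either resembled tube 2. Pearson's r of the normalized log2 intensities was taken across the control-detected probes measured on both arrays of a pair (21776 to 21885 for tubes). It was 0.474 between tubes 1 and 2, 0.611 between tubes 1 and 3, and 0.438 between tubes 2 and 3. It lay between 0.920 and 0.954 among the controls and between 0.773 and 0.796 among the mixers. These are correlations across probes, which are not independent and share their differences in probe brightness.

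The brightest probes differed as well. Of the 1000 brightest probes of a tube, 328 were shared by tubes 1 and 2, 501 by tubes 1 and 3 and 239 by tubes 2 and 3, and 210 were in all 3 lists. The controls shared 761 to 838 of their 1000 brightest, and the mixers 558 to 616. The median control percentile of the list was 83.4 on tube 1, 61.1 on tube 2 and 84.5 on tube 3. Of the list of tube 2, 643 probes were in neither other list, and their median control percentile was 52.1, near the middle of all probes.

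Each tube followed the unamplified profile loosely. Across the control-detected probes, r with the control mean was 0.294 for tube 1, 0.147 for tube 2 and 0.304 for tube 3, against 0.394, 0.349 and 0.384 for the mixers. The tube values were all below the mixer values. The mean difference was -0.127, with an exact permutation p of 0.1, the smallest 3 against 3 allows.

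Single genes were at or near saturation in 1 tube and below the buffer limit in the others. Nutf2, which carries the GTPase Ran into the nucleus, had net intensities of 62384, -298 and -212 on tubes 1 to 3 and of 21324, 4621 and 18391 on controls 1 to 3. Pdcd10, a scaffold protein needed in blood vessel walls, had 62576, -41 and -178 on the tubes and 9471, 8498 and 6429 on the controls. Both were bright on tube 1 alone, above every control, and undetected on tubes 2 and 3.

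Tube 2 had its own set. Parvb, an adaptor of integrin-linked kinase, had net intensities of -118, 63068 and 61 on tubes 1 to 3 and of 21872, 15569 and 15686 on the controls. Snd1, a nuclease that binds RNA-silencing complexes, had -52, 63074 and 69 on the tubes and 6387, 5702 and 9626 on the controls. Crebzf, a leucine-zipper transcription factor, had 1, 62760 and 50 on the tubes and 2868, 2315 and 3013 on the controls. All 3 were bright on tube 2 alone.

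On tube 3 the same pattern held for other genes. Rpl23a, a protein of the large ribosomal subunit, had net intensities of 81, 24 and 62732 on tubes 1 to 3 and of 13202, 15083 and 5359 on the controls. Morf4l1, a chromatin protein with a chromodomain, had -86, -220 and 63066 on the tubes and 7934, 6706 and 5554 on the controls. Both were detected on tube 3 and on neither other tube.

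Tubb3, the neuronal beta-tubulin, was strong on tube 1 with a net intensity of 52376, undetected on tube 2 at 136 and weak on tube 3 at 950. The controls read 21664, 15046 and 20218, inside the range of the tubes. None of these 8 genes passed limma's test between the groups with all arrays. They were chosen for an excess on 1 tube (Tubb3 as an anchor gene), so their values without that tube follow from the choice and are not tested. Over all probes the median SD within a group was 1.00 on the normalized log2 scale for tubes, 0.27 for controls and 0.49 for mixers.

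**Figure D2:**
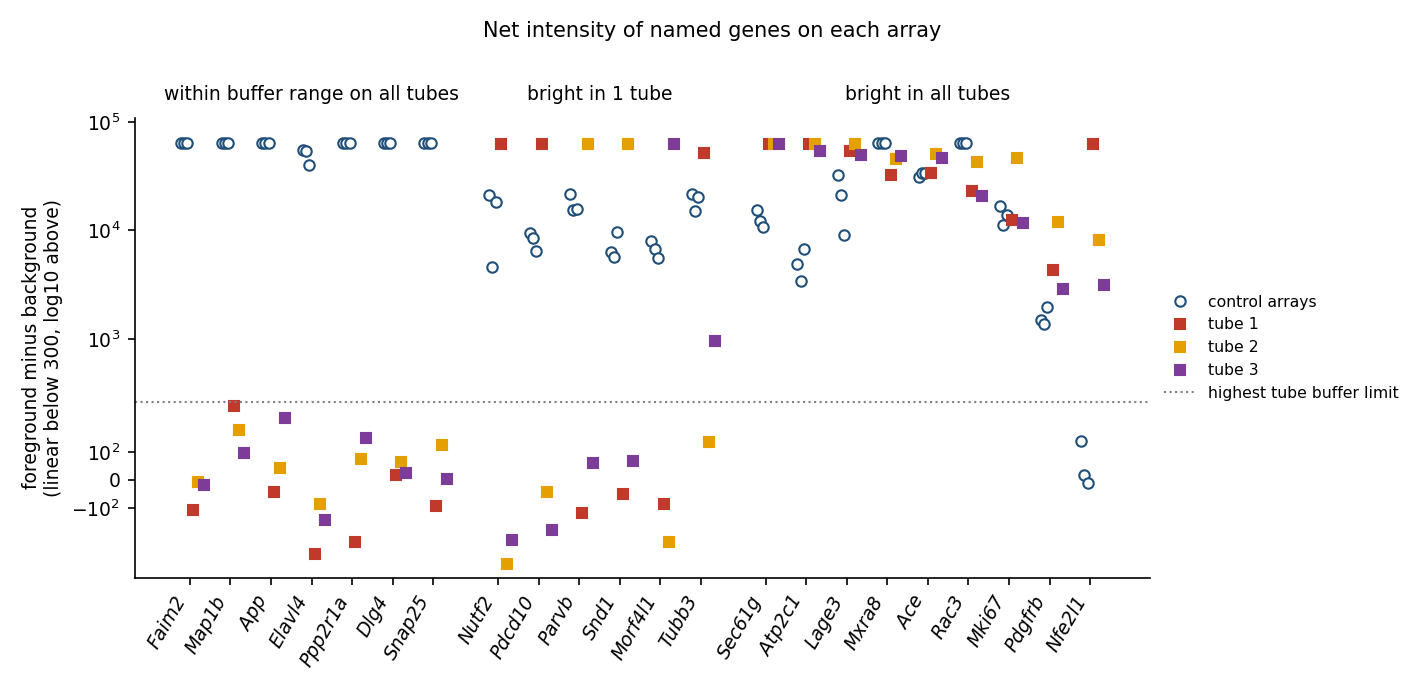
Net intensity (vertical axis, log10 above 300 and linear below) of named genes on single control arrays (circles) and tube arrays (squares), with the highest tube buffer limit dotted. The 7 genes within the buffer range on all tubes sit at 40146 or above on the controls, Sec61g and Atp2c1 sit at 54492 or above on all tubes, and Nutf2, Parvb and Morf4l1 are bright on 1 tube each.

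A set of bright probes kept the same proportions between the tubes. There were 1054 unsaturated probes with a net intensity above 1000 on all 3 tubes. For 331 of them (31.4%) the signal on tube 2 was 2 to 4 times that on tube 1 and the signal on tube 3 was 0.7 to 1.1 times that on tube 1, limits set after the values were seen. Their median ratios were 2.83 and 0.874. The other 723 had median ratios of 0.867 and 1.13. These counts are a description of chosen probes and carry no test.

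Those 331 probes were dimmer in unamplified RNA than the other bright ones. Their median control percentile was 57.2, against 81.9 for the other 723, and their median percentile on the mixers was 46.0 against 82.0. They lay in 47 of the 48 print blocks, and 2 of them (0.6%) were odorant receptor probes, against 2.99% of all gene probes. Mki67, the proliferation antigen, was among them with net intensities of 12408, 46990 and 11761 on tubes 1 to 3. So was Itm2a, a membrane protein of blood vessels and cartilage, with 9585, 34416 and 9062.

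**Figure D3:**
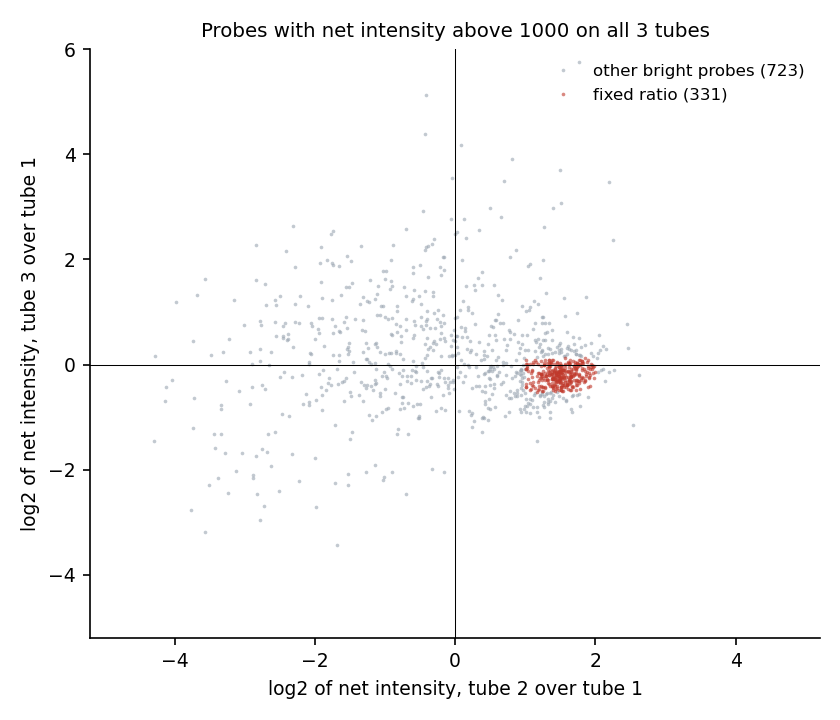
Log2 ratio of net intensity on tube 2 to tube 1 (horizontal axis) against that on tube 3 to tube 1 (vertical axis), 1 point per probe, for the 1054 bright unsaturated probes. The 331 probes within the limits (red) have median linear ratios of 2.83 and 0.874, and the other 723 (grey) spread to both sides of 0 on both axes.

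Recovery also varied over the slide. Arrays were printed in 48 blocks, 4 to a row. In blocks 1 to 36 the share of control-detected probes above buffer was 48.6% on tube 1, 39.4% on tube 2 and 48.1% on tube 3, and in blocks 37 to 48 it was 28.3%, 35.4% and 32.9%. All gene probes of the last row of blocks were above buffer at 17.4%, 30.4% and 21.99%, against 91.6%, 94.4% and 92.2% on controls 1 to 3. The first row was low too, at 40.3%, 35.6% and 30.2% on tubes 1 to 3, against 53.7%, 38.8% and 51.2% in the fifth. On tube 3 the second row stood at 35.6%. Repeats of 1 probe for Gapdh, a glycolytic enzyme, were spotted in every row. Their median net intensity on tube 1 was 1802 in the fifth row and 110.8 in the last; on tube 3 it was 4153 and 241.5. On tube 2 the values were 491 and 191. The same probe was thus dimmer near the end of the slide on each tube, and the part of the print position in single-gene results was not tested. Genes named below as lower in the tube that lie in blocks 37 to 48 are App, Elavl4, Ppp2r1a, Stx1a, Stmn1, Faim2, Cck, C1qa, Atp5a1, Uqcrh, Jun, Arc, Rpl37a, Atp6v1b2, Calm3 and Gad1. Those in blocks 1 to 8 include Map2, Glul, Hsp90aa1 and Snap25.

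**Figure D4:**
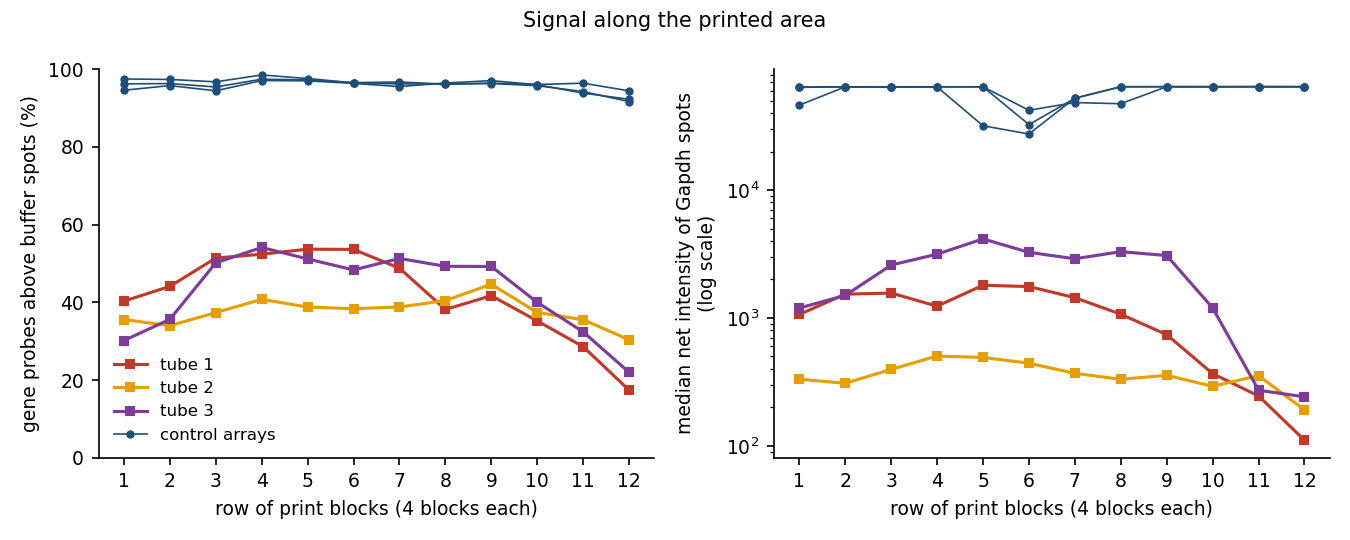
Share of gene probes above the buffer limit (percent) and median net intensity of the repeated Gapdh probe (log axis) on each array, by row of print blocks along the slide. Controls stay above 91% in every row, while tube 1 falls from 53.7% in row 5 to 17.4% in row 12.

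The test of tube against control asked which transcripts changed their place in the profile. Intensities were made to follow 1 common distribution over the arrays (quantile normalization), so a log2 difference compares positions in that distribution and not the amount of signal. Limma tested 22446 probes that were detected on all arrays of at least 1 group, so a probe seen in 1 group alone entered only where it was high there. By Benjamini-Hochberg adjusted p under 0.05, 6048 (26.9%) differed, 2901 (12.9%) higher and 3147 (14%) lower in the tube, and 9012 had an unadjusted p under 0.05. The normalized values of the groups did not overlap for 10259 probes (45.7%), with the tube higher for 4986 (22.2%) and lower for 5273 (23.5%).

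The direction of these calls has to be read beside the net intensities. Of the probes tested, 87.6% had lower net intensity on every tube than on every control. All 3147 lower probes did, and 2030 of them were above buffer on no tube. Of the 2901 higher probes, 243 (8.38%) had higher net intensity on every tube than on every control, and the rest held a higher place in the tube at a lower or overlapping intensity. Leaving out 1 array changed the counts: without control 1, 2 or 3 the probes that differed numbered 2536, 2587 and 2665, and without tube 2 the higher probes numbered 4520.

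The largest falls and the brightest of the lost genes included neuronal ones. Both sets were chosen by these same values, the second for being bright on the controls and above buffer on no tube. Their loss and its size therefore follow in part from the choice, and their p-values give no separate support. Faim2, a neuronal inhibitor of Fas-mediated cell death, had net intensities of 64431, 64440 and 64444 on controls 1 to 3 and of -106, -8 and -17 on tubes 1 to 3. It was saturated on all controls and not above buffer on any tube, at least 33.9-fold lower (limma adjusted p = 0.00098). Folds written "at least" set the controls' normalized mean against that of the lowest detected signal of each tube array, or the probe's own where that is higher, and the reverse for rises.

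Map1b, a microtubule-associated protein of axons, had net intensities of 64311, 64432 and 64490 on the controls and of 264, 178 and 97 on the tubes, at least 30.1-fold lower (adjusted p = 0.000993). Elavl4, an RNA-binding protein of neurons, had 55639, 54099 and 40146 on the controls and -264, -86 and -144 on the tubes, at least 12.7-fold lower (adjusted p = 0.00098). Map2, the microtubule-associated protein of dendrites, had 59726, 29865 and 64121 on the controls and -263, -253 and -26 on the tubes, at least 12.5-fold lower (adjusted p = 0.000993). In all 3 every tube was below every control and below its buffer limit.

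Loss was not restricted to neuronal genes. Ppp2r1a, the scaffold subunit of protein phosphatase 2A, had net intensities of 64320, 64415 and 64448 on the controls and of -219, 75 and 148 on the tubes, at least 29.6-fold lower (adjusted p = 0.00123). Pip4p1, a phosphoinositide phosphatase of endosomes and lysosomes, had 64300, 64447 and 64448 on the controls and 154, 55 and 147 on the tubes, at least 30.4-fold lower (adjusted p = 0.00098). Elk1, a transcription factor activated by MAP kinases, had 64296, 64428 and 64449 on the controls and 172, 188 and -148 on the tubes, at least 29.4-fold lower (adjusted p = 0.00175). Each went from saturation on the controls to below buffer on the tubes, a pattern that follows from how these genes were chosen.

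Other probes of a gene did not always move with the named one. App, the amyloid precursor protein, had net intensities of 64356, 64395 and 64424 on the controls and of -43, 44 and 222 on the tubes at its brightest probe, at least 29.6-fold lower (adjusted p = 0.000993). Its other probe differed by -0.07 on the normalized log2 scale. Over 1551 to 1562 genes with more than 1 probe, r between the intensities of a pair of probes was 0.082, 0.049 and 0.038 on tubes 1 to 3 and 0.197, 0.184 and 0.183 on controls 1 to 3. Pairs of probes thus ranked a gene alike only weakly even without amplification.

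A small number of genes were bright in all tubes. Sec61g, a subunit of the channel that carries proteins into the endoplasmic reticulum, had net intensities of 62854, 63094 and 63064 on tubes 1 to 3, at saturation, and of 15399, 12106 and 10782 on controls 1 to 3. It was at least 13.3-fold higher on the normalized scale (adjusted p = 0.00155). Atp2c1, the calcium and manganese pump of the Golgi, had 62971, 62803 and 54492 on the tubes and 4870, 3427 and 6764 on the controls. The fitted log2 difference was 5.12 ± 0.47 (SE, n = 3 and 3, limma adjusted p = 0.000993). Tubes 1 and 2 were at saturation, where values are capped, so the size may be too small and its SE is not exact. For both every tube was above every control.

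Lage3, a component of a complex that modifies transfer RNAs, had net intensities of 54312, 62914 and 50105 on the tubes and of 32582, 21030 and 9028 on the controls, a log2 difference of 3.02 ± 0.58 (SE, limma adjusted p = 0.00776). Minpp1, an inositol polyphosphate phosphatase, had 36797, 62934 and 27214 on the tubes and 8790, 6608 and 12232 on the controls, a log2 difference of 4.13 ± 0.49 (adjusted p = 0.00161). Its other probe differed by 0.43. Ifi27, an interferon-induced protein, had 32132, 62964 and 25972 on the tubes and 20286, 17572 and 15678 on the controls, a log2 difference of 2.99 ± 0.44 (adjusted p = 0.0031). These 3 also stood above every control on every tube, and all 3 were highest on tube 2, at saturation there. Their sizes may therefore be too small and their SEs are not exact.

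Some genes bright in both groups did not pass the test. Tcte3, a light chain of dynein, had net intensities of 62701, 62740 and 62772 on the tubes and of 64156, 64178 and 60255 on the controls (adjusted p = 0.126). Rac3, a small GTPase, had 23103, 42762 and 20632 on the tubes and 64116, 64135 and 64132 on the controls (adjusted p = 0.282). Mxra8, a membrane protein with immunoglobulin domains, had 32442, 45320 and 48154 on the tubes and 64290, 64385 and 64358 on the controls (adjusted p = 0.582). For Rac3 and Mxra8 every tube was dimmer than every control. Ace, the angiotensin-converting enzyme, had 33804, 50501 and 46800 on the tubes and 31352, 34066 and 33704 on the controls, which overlapped; it rose by 1.97 ± 0.45 on the normalized log2 scale (adjusted p = 0.0148), a call lost without any 1 control array, and its other probe differed by -1.19.

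The largest rises were of genes at or near the floor without amplification. This follows in part from the ranking, because the scale leaves room for a large rise only above a low control value. Gngt1, the gamma subunit of rod transducin in the retina, had net intensities of 6326, 1192 and 28451 on the tubes and of 110, -120 and -56 on the controls, at least 130-fold higher on the normalized scale (adjusted p = 0.00098). Nfe2l1, a leucine-zipper transcription factor, had 62784, 8140 and 3148 on the tubes and 139, 19 and -12 on the controls, at least 158-fold higher (adjusted p = 0.00098). Neither was above buffer on any control or mixer array. Both lie in print block 9, as does Itga2, an integrin subunit that is also among the 10 largest rises.

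Gapt, an adaptor protein of B cells, had net intensities of 6542, 17852 and 6689 on the tubes and of 245, 388 and 374 on the controls, a log2 difference of 7.09 ± 0.47 (adjusted p = 0.00098). Tmem200a, a membrane protein, had 7490, 28842 and 7212 on the tubes and 684, 1252 and 572 on the controls, a log2 difference of 6.47 ± 0.50 (adjusted p = 0.00098). Both belong to the 331 probes with fixed proportions, which hold 4 of the 10 largest rises. Smc2, a condensin subunit, was lowest on tube 2 instead, with 8824, 4218 and 10354 on the tubes and 591, 500 and 476 on the controls, a log2 difference of 6.73 ± 0.44 (adjusted p = 0.00098).

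The 243 probes with higher net intensity on every tube were dim on the controls. This follows in part from the choice, because the tube arrays were the dimmer as a whole. The median control net intensity of the 243 probes was 769 and their median control percentile 13.02, and 16 of them were detected on no control array. Of the 243, 89 belonged to the 331 with fixed proportions and 7 were odorant receptor probes, which make up 2.99% of all gene probes.

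Of 26 measured genes of the presynaptic vesicle and its release machinery, 17 fell and 0 rose, with a median log2 difference of -3.44 against 0.01 over the 20386 named genes tested, of which 2839 (13.9%) fell and 2743 (13.5%) rose. The counts of each list below stand beside these shares. The median control percentile of the list was 95.8, and it stood at 59.1, 49.5 and 48.02 on tubes 1 to 3. Members were above buffer at 50.0%, 34.6% and 30.8%, against 40.4%, 34.5% and 47.6% for the odorant receptor genes. The lists below differ in control level, and the part of that level in a list's fall was not tested.

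Snap25, a protein that docks synaptic vesicles, had net intensities of 63906, 64162 and 64080 on the controls and of -92, 124 and 4 on the tubes, at least 16.6-fold lower (adjusted p = 0.000993). Cplx1, a complexin that clamps vesicle release, kept a trace, with 64305, 64455 and 64460 on the controls and 1184, 337 and 1696 on the tubes, at least 10.3-fold lower (adjusted p = 0.005). Cplx1 was above the buffer limit on all tubes and Snap25 on none. Stx1a, a syntaxin, was at least 25.5-fold lower (adjusted p = 0.000993). Bsn, a scaffold of the active zone, lay higher in the tube by 1.47 on the normalized log2 scale and did not pass the test (adjusted p = 0.0734; without tube 1 it rose by 1.78, adjusted p = 0.0364), with net intensities of 1232, 1796 and 2024 on the tubes and 14014, 9530 and 11348 on the controls.

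On the postsynaptic side, 12 of 22 genes fell and 0 rose, with a median log2 difference of -2.48. Dlg4, the scaffold PSD-95, had net intensities of 64312, 64399 and 64380 on the controls and of 17, 66 and 24 on the tubes, at least 26.3-fold lower (adjusted p = 0.00098). Grin1, the obligatory NMDA receptor subunit, had 53030, 52199 and 58460 on the controls and 16, -24 and 262 on the tubes, at least 13.96-fold lower (adjusted p = 0.00155). Shank3, another scaffold, had 64347, 64400 and 64390 on the controls and 8830, 1490 and 3646 on the tubes, and did not pass (adjusted p = 0.146; without tube 1 it was lower, adjusted p = 0.0282). Dlg4 and Grin1 were lost from all tubes, while Shank3 was above buffer on each. Camk2a, a kinase subunit, was at least 22.5-fold lower at 1 probe (adjusted p = 0.00431) and differed by 0.13 at the other. Ppp3ca, the catalytic subunit of calcineurin, was at least 19.96-fold lower (adjusted p = 0.00133).

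Of 20 genes of the neuronal cytoskeleton, 10 fell and 1 rose, with a median log2 difference of -1.98. Stmn1, which binds tubulin, was at least 10.1-fold lower (adjusted p = 0.00098). Dpysl3, a protein of growing axons, was the 1 that rose, by 2.13 ± 0.61 (adjusted p = 0.0338), at lower net intensity: 2676, 4827 and 1760 on the tubes and 15316, 11252 and 9371 on the controls. That call was lost without any 1 control array.

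Among 14 genes of GABA synthesis and neuropeptides, 6 fell and 1 rose, with a median log2 difference of -0.46. Sst, the peptide somatostatin, had net intensities of 64264, 64237 and 64304 on the controls and of 18, 77 and 322 on the tubes, at least 20.1-fold lower (adjusted p = 0.00124). Cck, the peptide cholecystokinin, had 61480, 64393 and 64282 on the controls and 20, 102 and 262 on the tubes, at least 20.3-fold lower (adjusted p = 0.00123). Gad1, an enzyme that makes GABA, was lower (adjusted p = 0.00773) and above buffer on tube 2 alone. The 1 that rose was Crhbp, a protein that binds corticotropin-releasing hormone, with 4512, 6862 and 4987 on the tubes and 1392, 1544 and 1134 on the controls, a log2 difference of 5.61 ± 0.46 (adjusted p = 0.00098). Every tube was above every control for Crhbp and below every control for the others.

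Of 18 oligodendrocyte and myelin genes, 8 fell and 0 rose, with a median log2 difference of -2.08. Mbp, the myelin basic protein, had net intensities of 64125, 64122 and 64197 on the controls and of 637, 404 and 977 on the tubes, at least 8.67-fold lower (adjusted p = 0.00281). Mbp remained above buffer on all tubes, each below every control.

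Of 17 astrocyte genes measured, 16 were tested, 9 fell and 0 rose, with a median log2 difference of -2.34. Gfap, the intermediate filament of astrocytes, had net intensities of 64324, 55359 and 27266 on the controls and of -49, 130 and 302 on the tubes, and was lower (adjusted p = 0.00363). It was saturated on control 1 and above buffer on tube 3 alone, so no size is given. Glul, glutamine synthetase, was at least 8.39-fold lower (adjusted p = 0.00155). S100b, a calcium-binding protein, did not pass (adjusted p = 0.741), with 1531, 624 and 1746 on the tubes and 24259, 19230 and 23564 on the controls.

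Of 14 microglial genes, 3 fell and 2 rose, with a median log2 difference of -0.70, which became 0.21 with the deposited signal values. C1qa, a complement component above buffer on 2 tubes, fell by 3.07 ± 0.47 (adjusted p = 0.00356), with net intensities of 35289, 33016 and 30354 on the controls and of 373, 146 and 314 on the tubes. Of 15 endothelial and pericyte genes, 1 fell and 3 rose, with a median log2 difference of 0.60, and their median percentile was 82.3, 63.8 and 80.03 on tubes 1 to 3 against 62.6 on the controls. Pdgfrb, a growth factor receptor of pericytes, had 4332, 12049 and 2872 on the tubes and 1491, 1362 and 1965 on the controls, a log2 difference of 5.26 ± 0.56 (adjusted p = 0.00124). Itm2a had 2421, 2903 and 2202 on the controls, below every tube, a log2 difference of 5.38 ± 0.47 (adjusted p = 0.000993). The 1 that fell was Rgs5, a regulator of G-protein signalling in pericytes, at least 4.37-fold lower (adjusted p = 0.00265).

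Among cell cycle genes more rose than fell. Of 26 measured, 23 were tested, 6 rose and 2 fell, with a median control percentile of 38.3. The median log2 difference was 0.13, and it became -0.92 with the background SD limit and 1.12 with the deposited signal values. Mki67 had net intensities of 16862, 11296 and 13890 on the controls, overlapping its tube values, and rose by 3.14 ± 0.47 on the normalized scale (adjusted p = 0.00315). Top2a, a DNA topoisomerase of dividing cells, had 1435, 2569 and 2158 on the tubes and 1666, 3506 and 1157 on the controls, which overlap, and rose by 4.07 ± 0.61 (adjusted p = 0.00326). Neither rise is one of net intensity.

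Of 19 glycolytic genes, 10 fell and 1 rose, with a median log2 difference of -2.03. Gapdh had median net intensities over its 257 spots of 64169, 64256 and 64187 on the controls and of 1070, 374.5 and 1975 on the tubes, at least 6.18-fold lower (adjusted p = 0.00777). Aldoa, an aldolase, had 64190, 64357 and 64243 on the controls and 552, 372 and 918 on the tubes, at least 11.03-fold lower (adjusted p = 0.00211). Ldha, lactate dehydrogenase, did not pass (adjusted p = 0.47), with 18692, 1073 and 13928 on the tubes and 64288, 64380 and 64320 on the controls. All tubes detected the 3 genes, and all 3 were lowest on tube 2. The 1 that rose was Pfkfb4, a regulator of glycolytic flux, with 3382, 10345 and 3089 on the tubes and 856, 806 and 824 on the controls, a log2 difference of 5.86 ± 0.53 (adjusted p = 0.000993).

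Of 13 genes of protein phosphatase 2A and calmodulin, 12 were tested, 5 fell and 0 rose, with a median log2 difference of -2.27. Calm3, a calmodulin gene, was at least 20.3-fold lower (adjusted p = 0.00188). Of 21 chaperone and ubiquitin genes, 9 fell and 1 rose, with a median of -1.43. Ubb, a polyubiquitin gene, was at least 19.9-fold lower (adjusted p = 0.00392). Hsp90aa1, a chaperone, was at least 7.98-fold lower (adjusted p = 0.00184).

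Of 85 ribosomal protein genes measured, 84 were tested, 16 fell, 5 rose and 63 (75.0%) did not pass, near the 72.6% of all named genes that did not. Their median log2 difference was -0.35, and 25 (29.4%) were above buffer on all tubes, against 20.6% of all named genes. Above the odorant receptor limit stood 14 of the 85 (16.5%) on tube 1, 29 (34.1%) on tube 2 and 11 (12.9%) on tube 3, against 8.36%, 8.67% and 6.91% of all named genes. On at least 1 tube 44 (51.8%) passed it, against 16.4% of named genes, but 1 passed it on all. Tube 2 thus held more of them than the other tubes.

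Rps26, of the small subunit, had net intensities of 4450, 5956 and 2644 on the tubes and of 64140, 62252 and 17684 on the controls, and did not pass (adjusted p = 0.711). Rps3a1, also of the small subunit, had 2222, 6330 and 1982 on the tubes and 31598, 29495 and 16804 on the controls, and did not pass (adjusted p = 0.364). Rpl37a, of the large subunit, was lost, with -195, 31 and 196 on the tubes and 29616, 30609 and 28658 on the controls, at least 7.03-fold lower (adjusted p = 0.00354). The first pair was above buffer on every tube at lower intensity than on any control, and Rpl37a was above it on none.

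Of 19 translation factors, 7 fell and 0 rose, with a median log2 difference of -1.46. Pabpc1, the poly(A)-binding protein, was at least 6.26-fold lower (adjusted p = 0.00141). Eef2, the factor that moves the ribosome along, fell by 1.88 ± 0.47 (adjusted p = 0.0207), a call lost without any 1 control array. Of 92 nuclear genes of oxidative phosphorylation, 90 were tested, 18 fell and 8 rose, with a median of -0.74. Atp5a1, a subunit of ATP synthase, was at least 5.37-fold lower (adjusted p = 0.000993), and Uqcrh, a subunit of complex III, at least 4.85-fold lower (adjusted p = 0.00198).

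Of 15 genes of the vacuolar proton pump, 5 fell and 1 rose, with a median log2 difference of -1.64. Atp6v1b2, its B subunit in brain, was at least 23.2-fold lower (adjusted p = 0.00141), and Atp6v0c, of the membrane part, did not pass (adjusted p = 0.481), with net intensities of 5630, 17542 and 4038 on the tubes and of 64309, 64355 and 64410 on the controls. Of 9 sodium pump genes, 3 fell and 0 rose, with a median of -1.78. Atp1b1, a beta subunit, was at least 21.7-fold lower (adjusted p = 0.0022).

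Of 20 immediate early genes, which neurons switch on with activity, 2 (10%) fell and 0 rose, with a median log2 difference of -0.60 that became 0.17 with the deposited signal values. Those that fell were Jun, a transcription factor, at least 4.31-fold lower (adjusted p = 0.00372), and Arc, a synaptic protein above buffer on 2 tubes, by 1.79 ± 0.52 (adjusted p = 0.0369), a call lost without any 1 control array. Egr3, a zinc-finger factor, had net intensities of 817, 1088 and 62933 on the tubes and of 7959, 7653 and 30703 on the controls (adjusted p = 0.271). Of 23 replication-dependent histone genes, 22 were tested, 4 fell and 1 rose, with a median of -0.23 that became 1.11 with the deposited values, 0.18 with median centring and 0.06 without background correction. Of the 4 erythroid genes measured, 2 were tested and 0 passed.

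The lists chosen as silent in adult forebrain had medians above 0 that turned negative with the limit from the background SD, to -0.69 for odorant receptors, -0.64 for Hox genes and -0.89 for keratins. With the odorant receptor limit they were -3.34, -0.07 and -2.99, and the keratin median was -0.34 with the scanner's own mark. Of 716 odorant receptor genes, 628 were tested, 106 rose and 57 fell, with a median log2 difference of 0.45. Of 38 Hox genes, which pattern the embryonic trunk, 36 were tested, 7 rose and 1 fell, with a median of 0.78. Of 75 keratins, filaments of epithelia, 66 were tested, 11 rose and 6 fell, with a median of 0.39. Krt12, a keratin of the cornea, had net intensities of 4434, 2028 and 4199 on the tubes and of 4632, 2118 and 4132 on the controls, so that the groups overlapped, and rose by 4.25 ± 0.48 on the normalized scale (adjusted p = 0.00151). Hoxa9 had 16244, 885 and 24960 on the tubes and 64038, 54290 and 56996 on the controls, and did not pass (adjusted p = 0.955). Over probes detected on all 6 arrays the median of all probes was 1.48, and there the medians were 3.10 for GABA and neuropeptide genes, 1.55 for microglia, 0.74 for ribosomal proteins, 1.04 for oxidative phosphorylation, 1.66 for immediate early genes and -0.07 for Hox genes, each of the opposite sign to the value above.

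**Figure D5:**
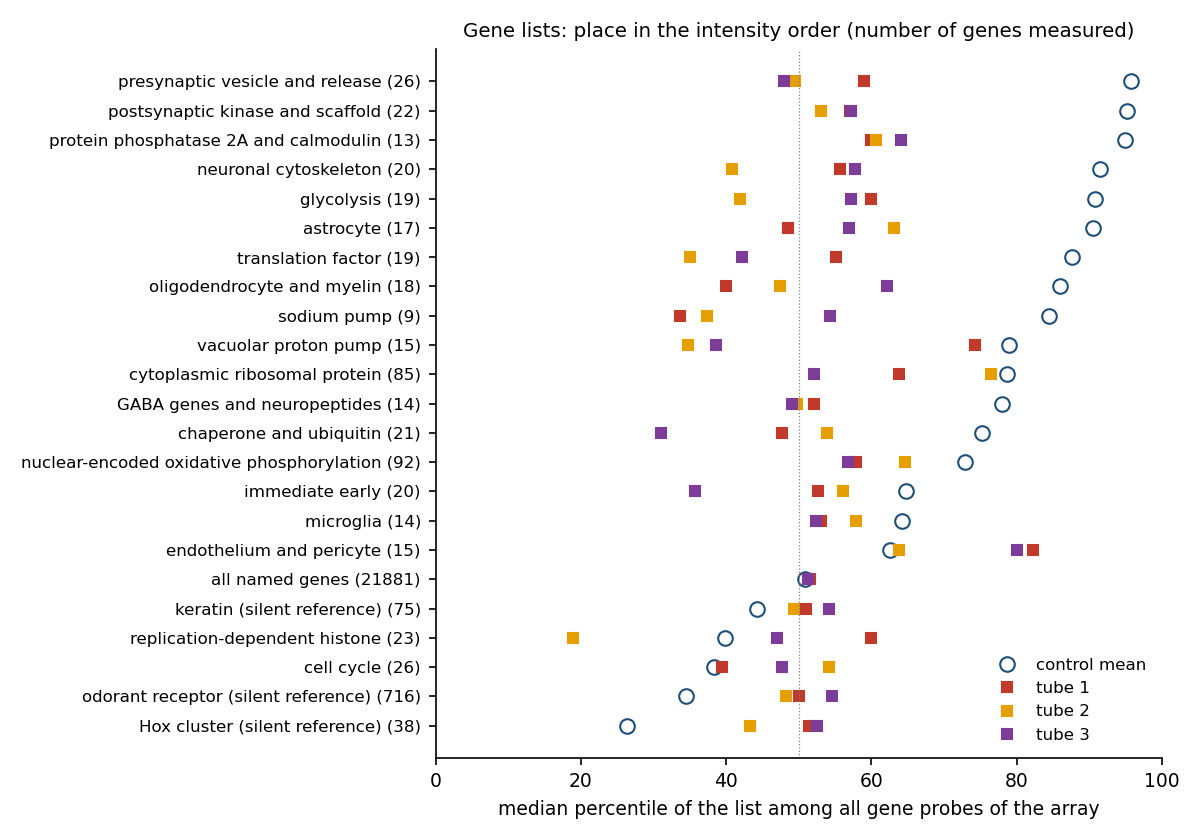
Median percentile of each gene list among all gene probes (horizontal axis), on the control mean (circles) and on each tube (squares), with the number of genes measured beside each list. Presynaptic genes stand at 95.8 on the controls and at 59.1, 49.5 and 48.02 on tubes 1 to 3, and the endothelial and pericyte list at 62.6 and at 82.3, 63.8 and 80.03.

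The tube and mixer reactions started from the same 10 pg and differed in volume and device. A scanning batch cannot be told apart from the reaction. The median local background was 753, 754 and 760 on mixers 1 to 3, below that of every tube. Of 18086 probes tested directly, 2857 (15.8%) differed, 1414 (7.82%) higher and 1443 (7.98%) lower in the tube. Gapdh had median net intensities of 12420, 8199 and 27397 on mixers 1 to 3, above all tubes. Plaa, a protein of ubiquitin-dependent sorting, was at 64751, 64839 and 64816 on the mixers and at 25763, 11912 and 49573 on the tubes, where controls read 2603, 2563 and 2244; its rise over the control was 5.71 ± 0.44 in the tube (adjusted p = 0.00098). Dlg4 read 7, 1382 and -32 on the mixers, above buffer on mixer 2 alone, and App read 102, 378 and 494, above buffer on all 3.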

How the data were processed

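Members, gene lists and tests were chosen with earlier results of these data known. Each deposited file holds, per the file headers, Mapix scanner output with the foreground and background intensity of 25344 spots at 635 nm, with no normalization; the tube files lack the header block, and their names, of which 18 had turned into dates, were taken by spot position from a file with a header. The authors also deposited a value table of signal values whose making is not given in the sources used here: its medians were 4.54 to 4.68 on the controls and 7.15 to 7.75 on the tubes, it ranked probes like net intensity (Spearman 0.977 to 0.995), and its scale and centring stay unknown. Of 24109 probes, 21015 matched a RefSeq gene and 176 conflicted and were not named, among them a repeated control probe.

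Intensities were corrected by normexp (offset 50), quantile-normalized over 16 arrays, set to log2 and tested with limma 3.58.1 (R 4.3.3; Python 3.11.15, pandas 2.3.3, SciPy 1.17.1) on the 6 arrays, with Benjamini-Hochberg adjustment over 22446 probes and a threshold of 0.05. The fit was tested on simulated data. Spots the scanner marked as bad were dropped, except saturated ones. The number of arrays limits the precision. Genes were named by rule, 1 probe per symbol, the brightest over the 6 arrays: the 10 largest rises and falls, the 15 brightest on all tubes, the 8 brightest controls lost from all tubes, the 5 with the largest excess on 1 tube, up to 3 and 2 of each list, and anchor genes; those described in the text are a subset. Replicate numbers were checked for pairing: deviations of same-numbered arrays correlated at 0.08, 0.03 and -0.05, and those of unlike number at -0.09 to 0.05. The groups were fitted without pairing. With 3 arrays a group and a wide spread among tubes, these values cannot tell whether same-numbered arrays share an extract. The alternatives covered detection limits, normalization, print blocks, the spread and each array left out. Results for some genes are not reported here.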

Additional observations from a re-analysis of the deposited data

Results flagged for a closer look

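Of the genes named above, 28 differed between the tube and mixer reactions by limma's direct test (adjusted p under 0.05). The test used the normalized log2 scale and up to 3 arrays against 3, fewer where a spot was marked bad. Effects of these genes against the shared control thus differ between the reactions. Many were named by rules that use the tube values, so a difference from the mixers follows in part from that choice. Over all probes tested directly, 2857 of 18086 (15.8%) differed. Groups of 3 arrays are too small for a check on single arrays that stand apart. Differences are given as tube minus mixer. Where a probe was near the floor on the mixers the size depends on the offset.

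Genes with the largest differences were dim on the mixers. They were 7.72 for Nfe2l1, 7.44 for Gngt1, 7.09 for Gapt, 7.07 for Crhbp, 6.52 for Mki67, 6.34 for Itga2, 6.14 for Pfkfb4 and 6.11 for Ifi27. Pfkfb4 was measured on mixer 1 alone, so its difference rests on 1 mixer array and has no spread among mixers. Crhbp, for instance, had net intensities of -18, -38 and 241 on the mixers and 4512, 6862 and 4987 on the tubes.

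Differences from 4 to 5.2 were found for Tcte3 (5.11), Minpp1 (5.04), Rps3a1 (4.81), Pdgfrb (4.79), Itm2a (4.74), Smc2 (4.34), Tmem200a (4.24) and Sec61g (4.09). Pdgfrb was measured on mixers 1 and 3 only. Sec61g and Tcte3 were saturated in the tubes and read 3066 to 9327 and 1372 to 2663 on the mixers. Smaller ones were found for Ace (3.96), Dpysl3 (3.88), Atp6v0c (2.84), Bsn (2.66), Eef2 (2.34) and Lage3 (2.05).

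Lower in the tube than in the mixer were Rpl37a (-5.74), Rgs5 (-4.51), Pip4p1 (-3.15), Sst (-2.65), Stmn1 (-2.36) and Stx1a (-2.07). Rpl37a read 64598, 64711 and 35085 on the mixers and Pip4p1 48926, 7856 and 9742, where no tube was above buffer for either gene.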

How the results depend on the processing

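The number of probes that differed depended on the processing. Against 6048 (2901 higher, 3147 lower), median centring gave 9499 (5131 higher), the deposited signal values 16859 (12278 higher), probes detected on all 6 arrays 2525 (283 lower), a limit from the background SD 3995 (906 higher) and the odorant receptor limit, added after seeing the data, 890 (297 higher, 593 lower). Fewer probes were tested under these last 3; for the others the cause was not tested. Leaving out 1 array gave 2536 to 8845 (1186 to 4520 higher, 1350 to 4325 lower). The share of higher among the calls was 47.97% and became 72.8%, 88.8%, 22.7% and 33.4% with the deposited values, detection on all 6 arrays, the SD limit and the odorant receptor limit; the deposited values and median centring moved the median of all probes to 0.69 and 0.13. With replicate number as a block 5689 differed (2724 higher, 2965 lower). Shares on tubes 1 to 3 were 35.3%, 23.0% and 35.9% with the 99th percentile of buffer spots, 6.47%, 3.92% and 8.48% with the SD limit, 31.0%, 19.8% and 32.0% with the odorant receptor limit applied to both groups, 35.1%, 29.8% and 37.2% with the scanner's own mark, 34.8% on tube 1 without background subtraction, and 48.6% and 48.1% on tubes 1 and 3 without blocks 37 to 48. The correlations with the control and between tubes moved by less than the spread under every alternative run. Of 1397 comparisons over 79 named genes, 1358 kept direction and side of the threshold, 20 (12 genes) gained the call, 18 lost it (Ace, Arc, Dpysl3 and Eef2) and Snd1, chosen for its excess on tube 2, reversed, from -2.18 without tube 2 to 1.42 without tube 1. A description by protein length was not run for want of lengths. Dim signal over a bright background limits what the tubes can show: a probe below buffer was not detectable there.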
